A study of Mus musculus with 12 samples.

Results

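Mast cells are resident immune cells of connective tissue, and 10 of the genes that define them are described here in mouse gonadal fat. The 10 were given by name and found through their NCBI gene IDs, and all 10 are among the 30268 gene rows of the expression table. They comprise 4 granule proteases (Tpsb2, Cma1, Mcpt4 and Cpa3), 2 subunits of the high-affinity IgE receptor (Fcer1a and Ms4a2) and 2 receptors for basic peptides and drugs (Mrgprb1 and Mrgprb2). The other members are Hdc, which encodes the histamine-forming enzyme histidine decarboxylase, and Kit, which encodes the receptor for stem cell factor.

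The tissue was gonadal white fat of male C57BL/6 mice, and each of 4 groups supplied 3 libraries of messenger RNA. The groups were miR-10a knockout mice on a high-fat diet (KO_HFD), wild-type mice on that diet (WT_HFD), knockout mice on normal chow (KO_NCD) and wild-type mice on normal chow (WT_NCD). Feeding began when the mice were 8 weeks old and lasted 16 weeks in every group. The labels state neither which bases were deleted nor whether the deletion is confined to a cell type. Libraries carry the animal number of the table's header, such as KO_HFD 8, and levels are FPKM, fragment counts scaled by transcript length and library size.

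Mast cells leave the bone marrow as progenitors and mature in tissue under stem cell factor, the ligand of KIT. Their granules store tryptases, chymases and carboxypeptidase A3 on heparin together with histamine, and they empty when IgE receptors are cross-linked or when MRGPRB2 meets a basic secretagogue. In fat they lie along vessels and in the connective tissue between adipocytes. RNA from a whole fat pad cannot tell fewer cells of a type from less RNA per cell, and that applies to every level below.

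The libraries were those of fat, with Adipoq, the adipocyte hormone adiponectin, at 376 to 784 FPKM in KO_HFD, 825 to 1110 in WT_HFD, 1905 to 2517 in KO_NCD and 1928 to 2291 in WT_NCD. Summed FPKM ran from 383633 to 455434 per library, and 12859 to 13667 genes reached 1 FPKM. Depth behind each value is unknown, since FPKM without counts were deposited. The row of the targeted gene Mir10a was listed at 0.183, 0.268 and 0.153 FPKM in KO_HFD, 0.199, 0.0221 and 0.102 in WT_HFD, 0.276, 0.0813 and 0.133 in KO_NCD and 0.425, 0.0615 and 0.265 in WT_NCD. These ranges overlap between the genotypes, and messenger RNA libraries do not measure a mature microRNA, so that row checks nothing about the genotype labels. Chow libraries KO_NCD 2, WT_NCD 2 and WT_NCD 4 stood apart by transcripts of ciliated epithelium: Foxj1, a regulator of motile cilia, was at 25.3, 17.4 and 11.1 FPKM there and at no more than 1.49 in the other 9 libraries.

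Sequences are shown first for the microRNA and for its single match among the members. A microRNA pairs with messenger RNA mainly through its seed, bases 2 to 8, in capitals below in the mature miR-10a-5p (GRCm38.p6, chr11:96317186-96317208, plus strand, from RefSeq). The seed match, ACAGGGT, was looked for in 3′ untranslated regions, taking the longest annotated one per gene, and the second line gives the Hdc match in capitals with 10 bases on either side.
mmu-miR-10a-5p: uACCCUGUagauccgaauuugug
Hdc 3′ UTR site: tcataacctcACAGGGTcttcgtgatc

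Hdc was the only member of the 10 with the match, once in a 3′ UTR of 297 bases. Among all tested protein-coding genes with a 3′ UTR, 1866 of 12482, or 14.95%, held it. The 4 proteases and the 4 receptor genes other than Kit had none in regions of 188 to 3000 bases, and Kit had none in 2180 bases. A match of letters is not a shown target.

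Mast cell genes are known to be switched on by the factor GATA2, whose family binds GATA motifs, and by MITF, which binds E-boxes. Windows from 250 bases before to 50 after the annotated start were available for 9 members (RefSeq, GRCm38.p6), all but Tpsb2. The letters GATAA, on either strand and so read as GATAA or TTATC, stood in the windows of 7 of these 9 members, against 25.4% of all 32851 windows and 16.8% of 13685 windows of tested genes. The match was in Cma1, Mcpt4, Cpa3, Fcer1a, Mrgprb1 and Mrgprb2 once each and in Ms4a2 3 times, and these letters were not in the windows of Hdc and Kit. An E-box sequence, CATGTG on either strand, stood in Fcer1a alone, at position -208, against 14.15% of all windows and 9.10% of those of tested genes. The windows of 2 proteases and 2 receptors are printed as examples of genes with a match that differed between the groups below, with the GATAA or TTATC letters in capitals. All 4 lie on the minus strand: Cpa3 at chr3:20242132-20242431, Mcpt4 at chr14:56062261-56062560, Fcer1a at chr1:173227180-173227479 and Mrgprb2 at chr7:48558037-48558336.
Cpa3 promoter: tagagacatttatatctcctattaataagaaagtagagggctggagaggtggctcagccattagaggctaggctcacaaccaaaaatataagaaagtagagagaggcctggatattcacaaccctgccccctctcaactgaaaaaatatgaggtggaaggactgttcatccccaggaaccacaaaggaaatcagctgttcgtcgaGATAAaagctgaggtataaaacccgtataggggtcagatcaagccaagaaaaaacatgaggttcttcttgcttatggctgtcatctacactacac
Mcpt4 promoter: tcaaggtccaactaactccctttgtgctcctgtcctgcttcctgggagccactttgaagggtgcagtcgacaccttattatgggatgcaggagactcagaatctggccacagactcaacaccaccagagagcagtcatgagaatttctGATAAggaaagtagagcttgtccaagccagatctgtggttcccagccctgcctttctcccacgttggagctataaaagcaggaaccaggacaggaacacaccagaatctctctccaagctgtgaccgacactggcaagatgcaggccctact
Fcer1a promoter: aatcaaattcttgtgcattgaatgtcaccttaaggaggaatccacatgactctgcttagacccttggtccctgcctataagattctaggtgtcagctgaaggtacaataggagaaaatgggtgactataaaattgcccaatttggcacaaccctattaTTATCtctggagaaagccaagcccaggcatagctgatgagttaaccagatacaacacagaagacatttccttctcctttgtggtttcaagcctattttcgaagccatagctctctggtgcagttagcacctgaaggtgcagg
Mrgprb2 promoter: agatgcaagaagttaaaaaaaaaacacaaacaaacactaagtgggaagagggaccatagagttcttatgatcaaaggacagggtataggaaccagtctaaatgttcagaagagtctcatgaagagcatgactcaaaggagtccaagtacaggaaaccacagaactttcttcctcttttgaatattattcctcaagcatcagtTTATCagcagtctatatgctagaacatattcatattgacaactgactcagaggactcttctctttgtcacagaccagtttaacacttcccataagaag

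Counted from the annotated start, the match began at -45 in Cpa3, -102 in Mcpt4, -92 in Fcer1a and -48 in Mrgprb2. In Cma1 it began at -194, and in Mrgprb1 it lay at 41, downstream of the start. Positions therefore differed from gene to gene. The transcript of Gata2 itself was at 2.56 ± 0.936 FPKM in KO_HFD, 2.83 ± 0.750 in WT_HFD, 3.74 ± 0.331 in KO_NCD and 4.32 ± 0.150 in WT_NCD (SD, n = 3), an order unlike that of the proteases below.

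**Figure D1:**
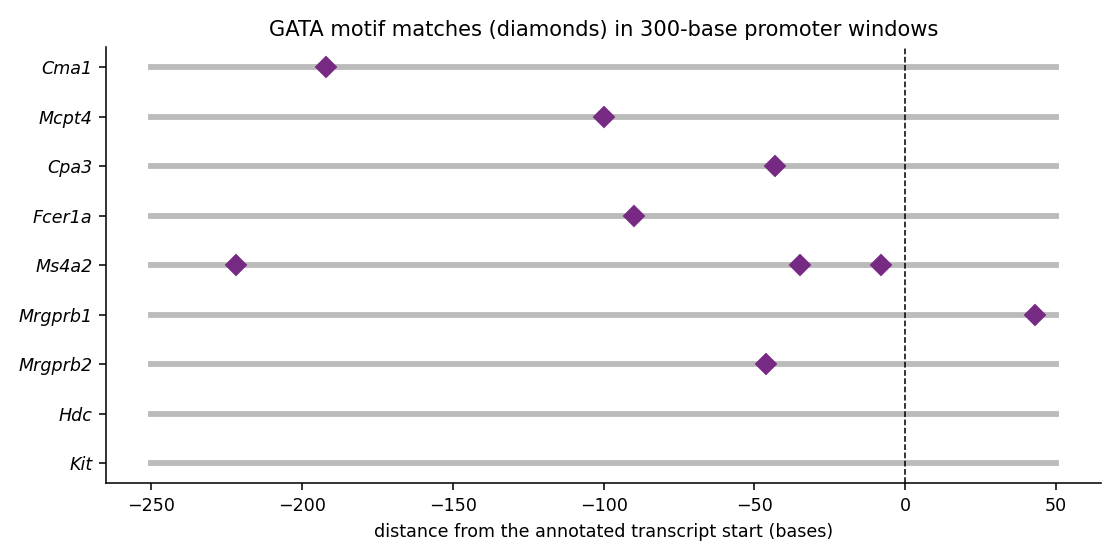
Diamonds mark GATAA or TTATC letters in the 300-base promoter window of 9 members, 1 row per gene, by distance in bases from the annotated start (dashed line). Ms4a2 carries 3 marks, 6 genes carry 1 and Hdc and Kit carry none.

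The granule proteases were the most abundant members by group mean, with an exception in KO_NCD. There mean Cpa3, at 2.43 FPKM, lay below Hdc at 3.04 and Kit at 2.96. All 4 proteases were highest in KO_HFD, where each library stood above every library of the other 3 groups, and on chow the knockout means lay below the wild-type means. The log2 fold changes below are differences of log2(FPKM + 1) from a limma model over all 12 libraries, with p-values adjusted by the Benjamini-Hochberg method over 14340 tested genes and a threshold of 0.05. Adding 1 FPKM shrinks the change of a low gene, so ratios of mean FPKM are given too.

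Tpsb2 (NCBI gene 17229, GRCm38.p6 chromosome 17, 25366308 to 25368096) encodes a tryptase stored on heparin. Its levels were 38.9, 40.0 and 37.7 FPKM in KO_HFD, 16.5, 18.3 and 12.0 in WT_HFD, 6.83, 4.32 and 4.19 in KO_NCD and 13.7, 9.08 and 10.9 in WT_NCD. The KO_HFD libraries were far above the rest and within 3 FPKM of each other, WT_HFD and WT_NCD overlapped, and every KO_NCD library was below every WT_NCD library. On the high-fat diet against chow the mean was 7.60-fold in knockouts (log2 fold change 2.73, SE 0.19, adjusted p = 8.5e-07) and 1.39-fold in wild types (0.43, adjusted p = 0.0787). Knockout against wild type, the mean was 2.50-fold on the high-fat diet (1.29, adjusted p = 0.0186) and 0.455-fold on chow, where the difference did not pass (-1.01, adjusted p = 0.116).

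Cma1 (17228, chromosome 14, 55941451 to 55944675) encodes a chymase-family protease. It stood at 28.1, 32.8 and 28.8 FPKM in KO_HFD, 13.0, 14.9 and 9.36 in WT_HFD, 5.001, 4.22 and 2.91 in KO_NCD and 8.60, 6.02 and 7.07 in WT_NCD. None of the 4 groups overlapped any other in this gene. The diet ratio was 7.39 in knockouts (log2 2.63, adjusted p = 9.45e-07) and 1.71 in wild types (0.69, adjusted p = 0.0102), and both rises passed. The genotype ratio was 2.41 on the high-fat diet (1.23, adjusted p = 0.0215) and 0.559 on chow (-0.72, adjusted p = 0.401).

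Mcpt4 (17227, chromosome 14, 56059744 to 56062310) encodes the chymase of connective tissue mast cells in mice. Levels were 48.2, 50.7 and 46.0 FPKM in KO_HFD, 20.9, 24.8 and 15.1 in WT_HFD, 9.68, 5.69 and 5.40 in KO_NCD and 14.4, 13.3 and 10.8 in WT_NCD. It was the highest of the 10 members in each group mean, with no overlap between any of the 4 groups. The diet ratio was 6.98 in knockouts (log2 2.68, adjusted p = 1.74e-06) and 1.58 in wild types (0.60, adjusted p = 0.0333), while the genotype ratio was 2.38 on the high-fat diet (1.24, adjusted p = 0.0292) and 0.538 on chow (-0.84, adjusted p = 0.362).

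Cpa3 (12873, chromosome 3, 20215616 to 20242209) encodes carboxypeptidase A3, which trims peptides and is shared by mast cells and basophils. Its values were 26.4, 26.4 and 28.8 FPKM in KO_HFD, 9.93, 12.0 and 8.98 in WT_HFD, 3.57, 1.73 and 1.997 in KO_NCD and 6.29, 4.47 and 3.31 in WT_NCD. The diets were apart in both genotypes, whereas the chow groups overlapped at their edges. Among the members it had the widest rise with diet, a ratio of 11.2 in knockouts (log2 3.08, SE 0.21, adjusted p = 7.88e-07) and 2.196 in wild types (1.01, adjusted p = 0.00248). The genotype ratio was 2.64 on the high-fat diet (1.33, adjusted p = 0.0235) and 0.518 on chow (-0.73, adjusted p = 0.526).

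The question of whether diet acted to the same extent in both genotypes was put to the interaction, the diet effect in knockouts minus that in wild types. It was 2.30 for Tpsb2 (SE 0.27, adjusted p = 0.0248), 1.94 for Cma1 (adjusted p = 0.0305), 2.08 for Mcpt4 (adjusted p = 0.0328) and 2.06 for Cpa3 (adjusted p = 0.0355), all on the log2(FPKM + 1) scale. Each diet change was thus larger in knockouts than in wild types by that amount. The interaction calls were fragile: left with 11 libraries, the model called 0 of the members in 9 of the 12 cases, and the values without each library are given in the closing part. The comparisons in knockouts and on the high-fat diet share the KO_HFD libraries, so they are not separate evidence.

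**Figure D2:**
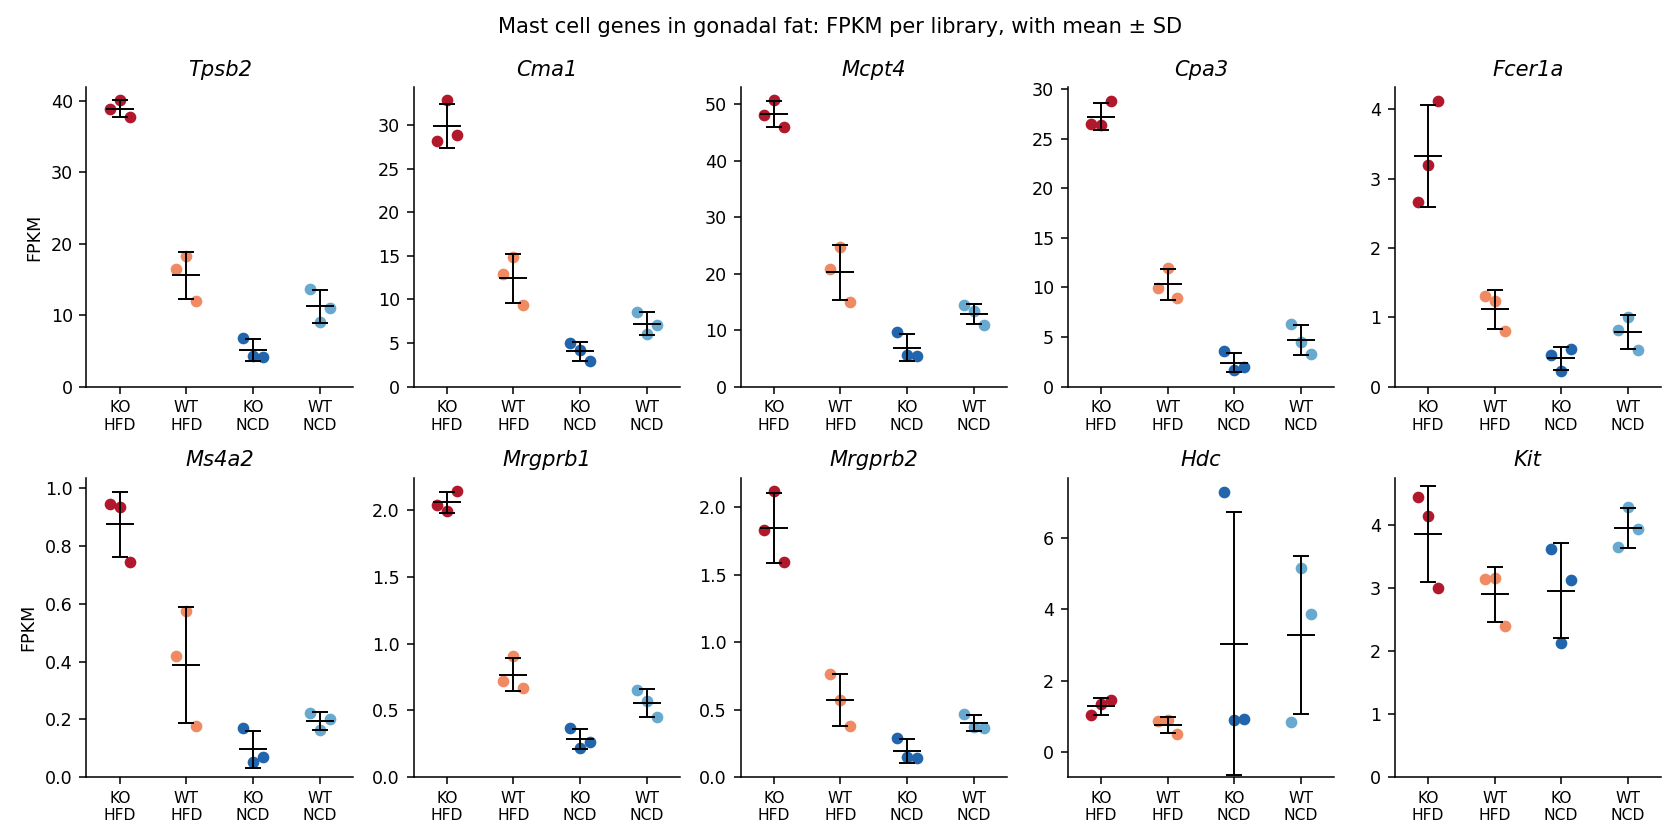
FPKM of each of the 10 members, 1 panel per gene on a linear axis, with groups KO_HFD, WT_HFD, KO_NCD and WT_NCD from left to right, points for libraries and bars for the mean ± SD (n = 3). In 8 members the KO_HFD points lie above all others, as in Mcpt4 at 46.0 to 50.7 FPKM, while Hdc and Kit do not show that order.

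Summed over the 4 proteases, levels were 144 ± 4.91 FPKM in KO_HFD, 58.5 ± 12.4 in WT_HFD, 18.5 ± 5.73 in KO_NCD and 36.0 ± 6.05 in WT_NCD (SD, n = 3). Cpa3 made up 18.9% ± 1.41 of that sum in KO_HFD and 17.8% ± 1.75 in WT_HFD, against 12.9% ± 1.86 in KO_NCD and 12.8% ± 2.26 in WT_NCD. Its share was above 16% in all 6 high-fat libraries and below 15% in all 6 chow libraries. These ratios between proteases were examined after their values had been seen. Libraries were permuted between diets within genotype, in an exact two-sided test with 400 arrangements whose smallest p is 0.005, adjusted over 12 tests. Cpa3 over Tpsb2 averaged 0.685 on the high-fat diet and 0.442 on chow (n = 6 each, exact permutation p = 0.005, adjusted p = 0.02). Cpa3 over Cma1 averaged 0.879 on the high-fat diet and 0.625 on chow, and Cpa3 over Mcpt4 averaged 0.541 on the high-fat diet and 0.353 on chow (both exact permutation p = 0.005, adjusted p = 0.02). For the 3 ratios among Tpsb2, Cma1 and Mcpt4 the adjusted p for diet was 0.564 to 0.807, and for genotype it was 0.564 to 0.995 over all 6 ratios in the exact permutation test. Cpa3 was higher relative to each of the other 3 proteases on the high-fat diet, by a log2 difference of 0.65 against Tpsb2, 0.52 against Cma1 and 0.62 against Mcpt4. The 3 ratios share the Cpa3 values, so they are not separate evidence. The diets had already been seen to stand apart in the Cpa3 share, so the p-values of these ratios only describe that separation.

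**Figure D3:**
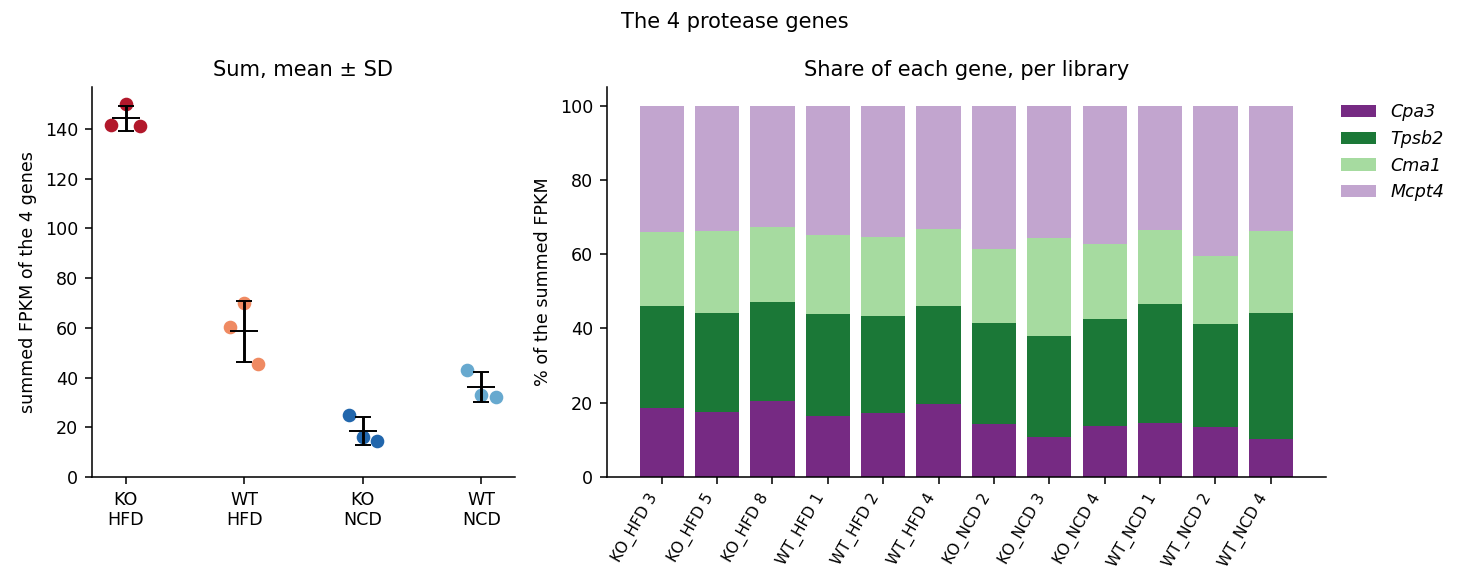
Left, summed FPKM of the 4 proteases by group, with points for libraries and bars for the mean ± SD (n = 3); right, the percentage of that sum that each gene made up in each library, in stacked bars. The sum lies between 141 and 150 FPKM in KO_HFD and between 14.5 and 25.1 in KO_NCD, and the Cpa3 share is 16.5% to 20.4% on the high-fat diet against 10.3% to 14.6% on chow.

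The receptor genes were much lower than the proteases but followed the same order of group means, KO_HFD above WT_HFD above WT_NCD above KO_NCD. Fcer1a (14125, chromosome 1, 173221269 to 173227232), the IgE-binding alpha subunit, was at 2.66, 3.19 and 4.12 FPKM in KO_HFD, 1.31, 1.24 and 0.796 in WT_HFD, 0.453, 0.227 and 0.540 in KO_NCD and 0.819, 1.01 and 0.522 in WT_NCD. KO_HFD stood alone, and the other neighbouring groups overlapped. The diet ratio was 8.18 in knockouts (log2 1.61, SE 0.16, adjusted p = 1.1e-05) and 1.43 in wild types (0.25, adjusted p = 0.221). The genotype ratio was 2.98 on the high-fat diet (1.03, adjusted p = 0.0235) and 0.520 on chow (-0.34, adjusted p = 0.967), and the interaction was 1.37 (SE 0.23, adjusted p = 0.0466).

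Ms4a2 (14126, chromosome 19, 11615517 to 11623790) encodes the beta subunit that amplifies the IgE signal. It never reached 1 FPKM: its levels were 0.947, 0.933 and 0.744 in KO_HFD, 0.419, 0.573 and 0.176 in WT_HFD, 0.170, 0.0523 and 0.0687 in KO_NCD and 0.222, 0.162 and 0.203 in WT_NCD. The KO_HFD libraries were again above all others, and the remaining neighbours overlapped. It failed the requirement of 1 FPKM in 3 libraries and was tested only among the 19015 genes with a mean of at least 0.1 FPKM, a filter added after the data had been seen. There its diet difference was 0.77 in knockouts (SE 0.10, adjusted p = 8.723e-05) and 0.21 in wild types (adjusted p = 0.114), and its genotype difference was 0.44 on the high-fat diet (adjusted p = 0.0713) and -0.13 on chow (adjusted p = 0.992). The ratios of mean FPKM were 9.03 and 1.99 for diet in knockouts and wild types, and 2.25 and 0.495 for genotype on the high-fat diet and chow.

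Mrgprb2 (243979, chromosome 7, 48550965 to 48558086) encodes the receptor through which cationic peptides and several drugs activate mouse mast cells without IgE, and Mrgprb1 (233231, chromosome 7, 48444113 to 48456342) is its neighbour in the same family. Mrgprb2 was at 1.83, 2.12 and 1.59 FPKM in KO_HFD, 0.764, 0.576 and 0.383 in WT_HFD, 0.293, 0.150 and 0.140 in KO_NCD and 0.472, 0.373 and 0.362 in WT_NCD. Mrgprb1 was at 2.04, 1.99 and 2.14 FPKM in KO_HFD, 0.723, 0.907 and 0.671 in WT_HFD, 0.366, 0.219 and 0.266 in KO_NCD and 0.656, 0.568 and 0.450 in WT_NCD. Both reached 1 FPKM in the KO_HFD libraries alone, so both passed the filter on low values only through the group in which they were highest. With that limit, the diet difference in knockouts was 1.25 for each (adjusted p = 9.25e-06 for Mrgprb2 and 2.1e-06 for Mrgprb1), at ratios of 9.49 and 7.26. In wild types it was 0.16 for Mrgprb2 (ratio 1.43, adjusted p = 0.293) and 0.18 for Mrgprb1 (ratio 1.37, adjusted p = 0.151). The genotype difference on the high-fat diet was 0.86 for Mrgprb2 (ratio 3.22, adjusted p = 0.0176) and 0.79 for Mrgprb1 (ratio 2.69, adjusted p = 0.00852), while neither passed on chow (ratios 0.484 and 0.508). The interaction was 1.09 for Mrgprb2 (adjusted p = 0.0446) and 1.07 for Mrgprb1 (adjusted p = 0.0277).

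Hdc and Kit went another way. Hdc (15186, chromosome 2, 126593659 to 126624025) was at 1.02, 1.34 and 1.46 FPKM in KO_HFD, 0.881, 0.901 and 0.506 in WT_HFD, 7.29, 0.890 and 0.932 in KO_NCD and 0.827, 5.15 and 3.88 in WT_NCD. Its 3 highest libraries were KO_NCD 2, WT_NCD 2 and WT_NCD 4, the chow libraries with ciliated transcripts, and the other 9 lay between 0.506 and 1.46 FPKM. No comparison of Hdc passed, with -0.46 for diet in knockouts (SE 0.56, adjusted p = 0.490) and -1.12 in wild types (adjusted p = 0.113). Without those 3 libraries the diet difference was 0.25 in knockouts (adjusted p = 0.150) and -0.06 in wild types (adjusted p = 0.820), and the genotype difference on the high-fat diet was 0.37 (adjusted p = 0.156). WT_NCD is then 1 library, assumed to vary like the others. The summed ciliated and duct list was 112 FPKM in KO_NCD 2, 88.5 in WT_NCD 2 and 76.5 in WT_NCD 4, against 29.4 to 49.96 in the other 9 libraries, and its part in the Hdc values was not tested beyond leaving those libraries out.

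**Figure D4:**
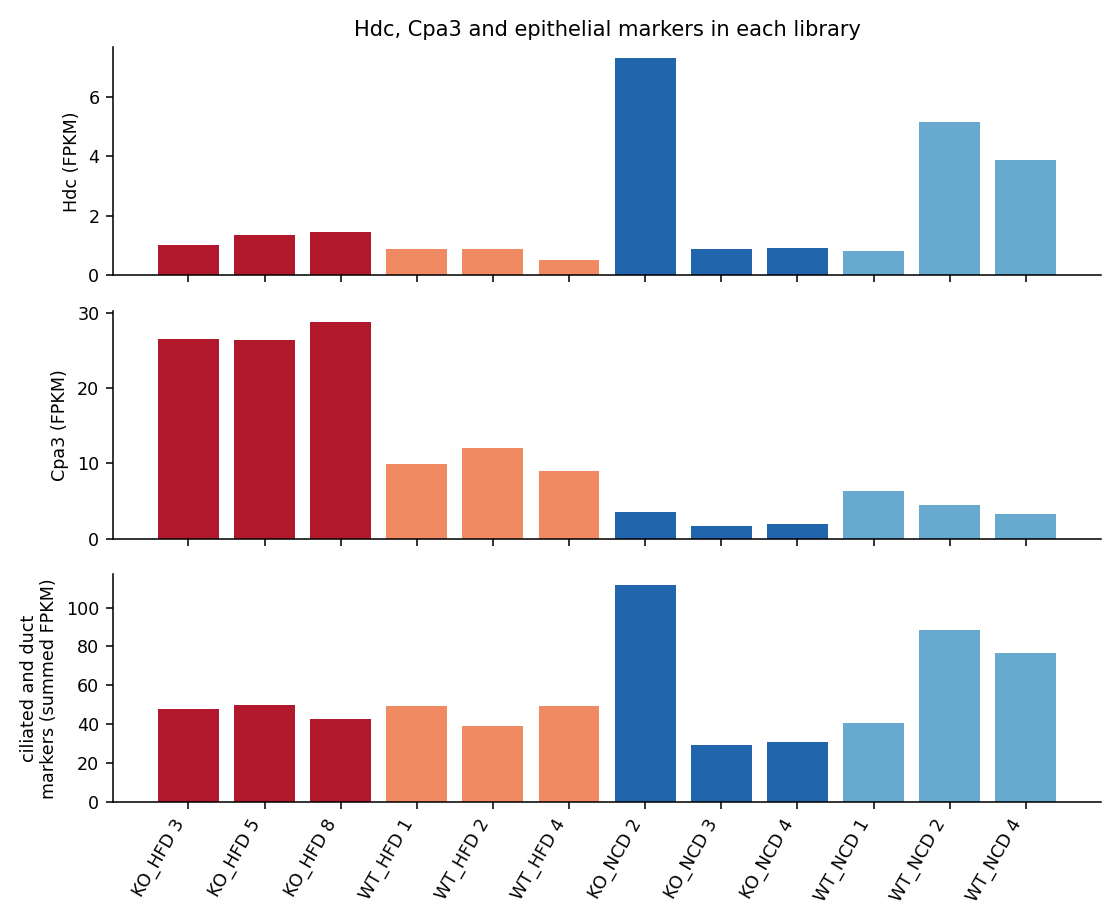
Bars give FPKM of Hdc (top), FPKM of Cpa3 (middle) and summed FPKM of ciliated and duct epithelium markers (bottom) in each of the 12 libraries, from KO_HFD on the left to WT_NCD on the right. The 3 chow libraries with Hdc at 3.88 to 7.29 FPKM are those with the marker sum at 76.5 to 112 FPKM, and Cpa3 is highest in KO_HFD.

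Kit (16590, chromosome 5, 75574987 to 75656722), which melanocytes and pacemaker cells of the gut wall also express, was at 4.44, 4.15 and 2.9999 FPKM in KO_HFD, 3.15, 3.16 and 2.40 in WT_HFD, 3.62, 2.14 and 3.13 in KO_NCD and 3.65, 4.28 and 3.94 in WT_NCD. All WT_HFD libraries and all KO_NCD libraries were below all WT_NCD libraries, and KO_HFD overlapped both WT_HFD and KO_NCD. Its diet difference was 0.30 in knockouts (SE 0.16, adjusted p = 0.117) and -0.35 in wild types (adjusted p = 0.0845). The genotype difference was 0.31 on the high-fat diet (adjusted p = 0.250) and -0.34 on chow (adjusted p = 0.967), and the interaction of 0.65 did not pass in limma (adjusted p = 0.191).

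Of the 10 members, 9 passed the filter of 1 FPKM in at least 3 libraries, and the exception was Ms4a2. Since Mrgprb1 and Mrgprb2 passed only through KO_HFD, the counts over the 9 are given as a description beside the background, and nothing is read from those that involve KO_HFD. On the high-fat diet against chow in knockouts, 7 members rose and none fell, where 34.6% of all tested genes rose and 26.2% fell. In wild types 3 members rose (Cma1, Mcpt4 and Cpa3) and none fell, where 25.4% of all tested genes rose and 25.3% fell, so 3 of 9 is near that background. Without the 3 chow libraries with ciliated transcripts, which leaves 1 library in WT_NCD, the call remained for Cpa3 alone (0.62, adjusted p = 0.0193). Knockout against wild type on the high-fat diet, 7 members rose, where 0.600% of tested genes rose and 0.202% fell, and the members were 7 of the 86 genes called higher. Leaving out WT_HFD 1 left 1 of those member calls, WT_HFD 2 left 3, and KO_HFD 3 or KO_HFD 8 left 2, while the estimates of all 9 tested members stayed positive. On chow none of the 9 passed in limma, although 5 had an unadjusted p under 0.05, as did 731 of all tested genes, and all 9 estimates were negative; of all tested genes 0.00697% fell there. The interaction was called for 7 members, where 0.265% of tested genes were called higher.

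All 10 members entered the test once genes were kept by a mean of at least 0.1 FPKM over the 12 libraries, although a gene high in a single group can pass that filter too. Then 8 members rose with the high-fat diet in knockouts (29.7% of all genes tested so), 3 in wild types (21.2%) and 7 in knockouts against wild types on that diet (0.473%), and the interaction was called for 6 (0.110%). Fcer1a lost its interaction call there, at an adjusted p of 0.0575. The median difference over the 10 members was 1.43 for diet in knockouts, 0.23 for diet in wild types, 0.94 for genotype on the high-fat diet and -0.34 for genotype on chow. Over all 19015 genes those medians were 0.01, -0.04, 0.02 and -0.05.

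Counted by levels alone, the KO_HFD libraries were all above the KO_NCD libraries in 8 of the 10 members, where this held for 36.2% of tested genes. They were all above the WT_HFD libraries in 9 members, every one but Kit, as in 19.0% of tested genes. WT_HFD was wholly above WT_NCD in 4 members (31.3% of tested genes) and wholly below in Kit alone (33.3%). KO_NCD was wholly below WT_NCD in 6 members (7.96% of tested genes), namely Tpsb2, Cma1, Mcpt4, Mrgprb1, Mrgprb2 and Kit.

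**Figure D5:**
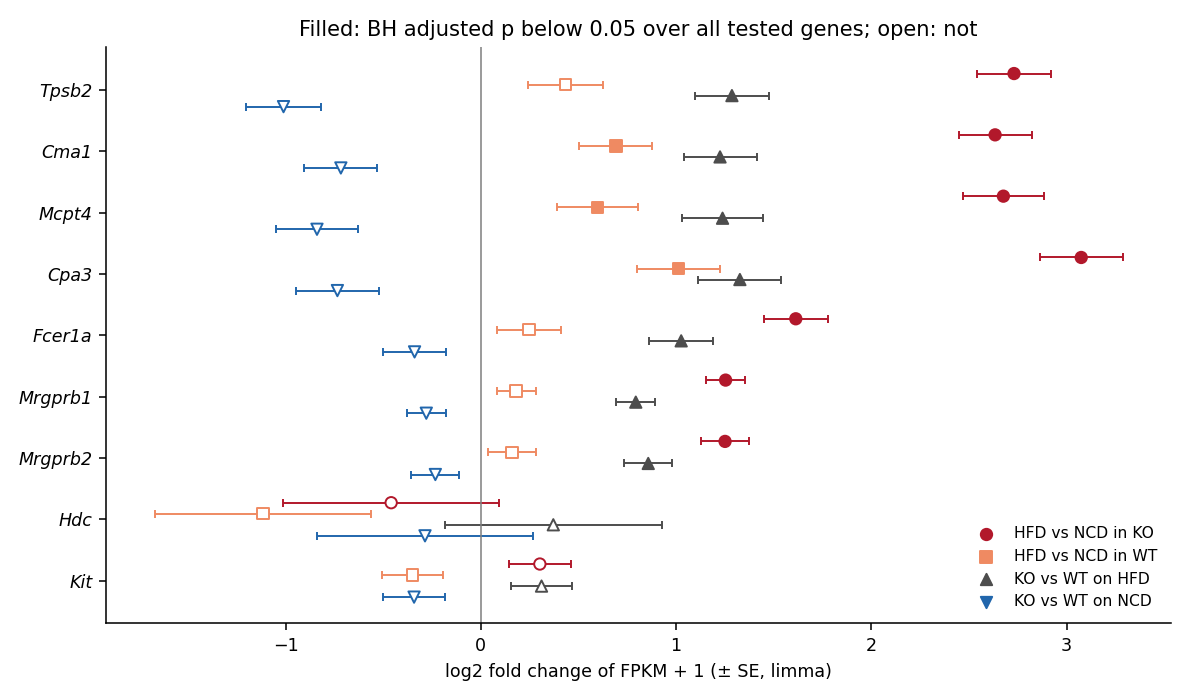
Log2 fold changes of FPKM + 1 with their standard errors for the 9 tested members, in 4 comparisons marked by shape and colour, where filled marks passed an adjusted p of 0.05. For the proteases the diet difference is 2.63 to 3.08 in knockouts and 0.43 to 1.01 in wild types, and the genotype difference is positive on the high-fat diet and negative, without passing, on chow.

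Other genes known from mast cells were read from a list of 20, of which 17 are in the table and 6 were tested. On the high-fat diet 4 of the 6 rose and 1 fell in knockouts, and 2 rose and 2 fell in wild types, against 34.6% and 26.2% of all tested genes in knockouts and 25.4% and 25.3% in wild types. The 2 of 6 in wild types is near the background in both directions. The list had a median of 0.83 in knockouts and -0.22 in wild types. The gene that fell in knockouts was Maob. It was at 9.16 ± 2.12 FPKM in KO_HFD, 13.3 ± 2.41 in WT_HFD, 38.7 ± 8.32 in KO_NCD and 41.8 ± 0.788 in WT_NCD. Its diet difference was -1.97 in knockouts and -1.60 in wild types (adjusted p = 5.08e-06 and 4.21e-05 in limma). Tpsab1 (chromosome 17, 25343245 to 25345562), a tryptase gene close to Tpsb2, was at 1.76, 1.54 and 1.52 FPKM in KO_HFD, 0.470, 0.260 and 0.272 in WT_HFD, 0.427, 0.203 and 0.168 in KO_NCD and 0.958, 0.399 and 0.681 in WT_NCD. KO_HFD was the only group above 1 FPKM, so this gene too passed the filter through it, with 1.05 for diet in knockouts (adjusted p = 9.58e-05), 0.97 for genotype on the high-fat diet (adjusted p = 0.0186) and -0.32 for diet in wild types (adjusted p = 0.0811). Untested because of low levels were Slc18a2, which loads amines into granules, at 0.775 ± 0.105 FPKM in KO_HFD, 0.338 ± 0.0931 in WT_HFD, 0.133 ± 0.0437 in KO_NCD and 0.304 ± 0.158 in WT_NCD, and Tph1, a serotonin-forming enzyme. Tph1 was at 0.475 ± 0.0710 FPKM in KO_HFD, 0.0992 ± 0.0361 in WT_HFD, 0.0436 ± 0.0224 in KO_NCD and 0.113 ± 0.0340 in WT_NCD, so KO_HFD was again highest.

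Il1rl1, the receptor for interleukin 33 on mast cells and other immune cells, averaged 4.96 ± 0.444 FPKM in KO_HFD, 3.27 ± 0.656 in WT_HFD, 1.60 ± 0.545 in KO_NCD and 2.02 ± 0.273 in WT_NCD. It rose with diet in knockouts (1.22, adjusted p = 6.66e-05) and in wild types (0.49, adjusted p = 0.0244). Hpgds, which makes prostaglandin D2 and is also expressed by macrophages, averaged 46.1 ± 5.92 FPKM in KO_HFD, 27.7 ± 4.84 in WT_HFD, 1.23 ± 0.204 in KO_NCD and 1.53 ± 0.112 in WT_NCD. Its diet differences, 4.40 in knockouts and 3.49 in wild types, exceeded those of every member. Mcpt1, a protease of mucosal mast cells, was listed at 0 in 11 libraries and at 0.0361 FPKM in KO_HFD 8.

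Among 17 genes that carry signals from the IgE receptor and KIT, 16 were tested; 14 rose and 2 fell with diet in knockouts, and 12 rose and 1 fell in wild types. Over all tested genes 34.6% rose and 26.2% fell in knockouts, and 25.4% rose and 25.3% fell in wild types. Between genotypes on the high-fat diet none of the 16 passed in limma, yet the median difference was 0.46, and Ptpn6, a phosphatase that dampens these signals, was at 39.0 to 46.3 FPKM in KO_HFD against 23.3 to 34.4 in WT_HFD (0.60, adjusted p = 0.062). Most of these genes are not particular to mast cells. Fcer1g, the gamma chain shared by several Fc receptors, averaged 202 ± 34.1 FPKM in KO_HFD, 144 ± 22.2 in WT_HFD, 25.1 ± 3.11 in KO_NCD and 29.5 ± 1.79 in WT_NCD, and it rose by 2.95 in knockouts and 2.24 in wild types (adjusted p = 7.59e-08 and 1.05e-06). The FPKM of this gamma chain was thus far above that of the alpha and beta chains in every group.

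Growth factors and regulators of mast cells were 10 genes in the table with 8 tested, of which 4 rose and 1 fell with diet in knockouts (34.6% and 26.2% of all tested genes), and 2 rose and 1 fell in wild types (25.4% and 25.3%). The 2 of 8 in wild types is near that background. Il33, an alarmin released by stromal cells, was at 5.53, 4.64 and 7.76 FPKM in KO_HFD, 2.89, 4.50 and 2.92 in WT_HFD, 3.28, 1.51 and 2.01 in KO_NCD and 5.12, 4.11 and 3.88 in WT_NCD. It rose with diet in knockouts (1.11, adjusted p = 0.00129), was at -0.29 in wild types (adjusted p = 0.292), and its interaction of 1.39 did not pass (adjusted p = 0.109). Kitl, which encodes stem cell factor, averaged 21.5 ± 1.39 FPKM in KO_HFD, 19.6 ± 0.601 in WT_HFD, 15.2 ± 2.55 in KO_NCD and 16.9 ± 0.810 in WT_NCD. This ligand rose with diet in knockouts (0.48, adjusted p = 0.00169) and was at 0.20 in wild types (adjusted p = 0.111); it was named after its values were seen. Mitf rose in both, by 1.57 in knockouts and 0.93 in wild types (adjusted p = 1.43e-05 and 0.000888). The gene that fell in both was Stat5a, by -0.45 in knockouts and -0.39 in wild types (adjusted p = 0.000654 and 0.00251 in limma). Stat5a averaged 10.4 ± 1.12 FPKM in KO_HFD, 11.5 ± 0.624 in WT_HFD, 14.5 ± 0.611 in KO_NCD and 15.4 ± 1.07 in WT_NCD.

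Of 13 genes for the granule matrix, histamine breakdown and eicosanoids, 11 were tested; 7 rose and 1 fell with diet in knockouts (34.6% and 26.2% of all tested genes), and 5 rose and 1 fell in wild types (25.4% and 25.3%). The gene that fell was Hnmt, whose enzyme inactivates histamine, at 11.1 ± 0.462 FPKM in KO_HFD, 13.3 ± 1.26 in WT_HFD, 22.1 ± 1.05 in KO_NCD and 19.6 ± 1.55 in WT_NCD. Its diet difference was -0.94 in knockouts (adjusted p = 3.22e-06) and -0.53 in wild types (adjusted p = 0.000301). Ndst2, which sulfates heparin in mast cell granules, rose by 0.75 in knockouts and 0.41 in wild types (adjusted p = 9.67e-06 and 0.00106). Of 10 receptors for mast cell mediators 3 were tested, and Hrh3, Ptgdr and Ptgdr2, which bind histamine or prostaglandin D2, stayed below 0.1 FPKM in every library.

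Markers of other cells were read beside the members, since basophils share several of these genes. Mcpt8, a protease that marks mouse basophils, was listed at 0 in 11 libraries and at 0.0190 FPKM in KO_HFD 8. Prss34, a protease gene read beside it, was too low to be tested. Its level was 0.995 to 1.25 FPKM in KO_HFD, 0.362 to 0.678 in WT_HFD, 0.103 to 0.223 in KO_NCD and 0.317 to 0.5604 in WT_NCD. The KO_HFD libraries of Prss34 were thus above all others, and its group means had the order of the granule proteases. The sum of 6 basophil markers includes genes of other cells. That sum was 19.3 to 22.7 FPKM in KO_HFD, 15.9 to 18.7 in WT_HFD, 8.76 to 10.6 in KO_NCD and 11.1 to 13.3 in WT_NCD. The eosinophil list was at 21.7 to 26.7 FPKM in KO_HFD, 21.6 to 43.1 in WT_HFD, 12.2 to 13.7 in KO_NCD and 16.1 to 18.8 in WT_NCD. Both sums rest mainly on a single gene, and the tested genes within each list differed. Il3ra, the interleukin 3 receptor, carried most of the basophil sum at 16.9 ± 0.816 FPKM in KO_HFD, 13.2 ± 2.34 in WT_HFD, 5.68 ± 0.665 in KO_NCD and 6.94 ± 1.15 in WT_NCD, whereas Gata2, the other tested gene of that list, had its highest means on chow, as given above. Ear2, an eosinophil-associated ribonuclease, carried most of the eosinophil sum at 19.5 ± 2.53 FPKM in KO_HFD, 27.2 ± 11.7 in WT_HFD, 12.2 ± 0.875 in KO_NCD and 16.4 ± 1.29 in WT_NCD. The other tested gene, the eotaxin receptor Ccr3, was at 1.69 to 2.09 FPKM in KO_HFD, 1.04 to 1.16 in WT_HFD, 0.0113 to 0.0643 in KO_NCD and 0.0168 to 0.0754 in WT_NCD. Ccr3 was thus wholly higher in knockouts on the high-fat diet, by 0.48, without passing (adjusted p = 0.0576 in limma).

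Macrophage markers, as a sum, were also highest in KO_HFD, but in wild types their changes with diet differed in size from those of the members. Their summed level, over 12 genes all tested, was 2508 to 3088 FPKM in KO_HFD, 1749 to 2234 in WT_HFD, 296 to 406 in KO_NCD and 368 to 462 in WT_NCD, with group means in the same order as those of the proteases. With diet 10 of the 12 rose and 2 fell in both genotypes. Over all tested genes 34.6% rose and 26.2% fell in knockouts, and 25.4% rose and 25.3% fell in wild types. On the high-fat diet 1, Fcgr1, was higher in knockouts (0.52, adjusted p = 0.0483 in limma), as were 0.600% of tested genes. In wild types the macrophage median was 2.06 and that of the 10 members, under the filter on the mean, 0.23. In knockouts these were 2.78 and 1.43, but adding 1 FPKM shrinks the low receptor genes among the members. The knockout diet ratio of mean FPKM was 6.98 to 11.2 for the proteases, against 7.13 for the macrophage marker C1qb and 28.9 for Cd68. In wild types it was 1.39 to 2.196 for the proteases, against 4.53 for C1qb and 15.3 for Cd68. The part of macrophages and of other cell types in the member levels was not tested. Of 8 neutrophil markers 2 were tested, and with diet 1 rose and 1 fell in both genotypes. S100a8, a calcium-binding protein of neutrophils, was at 25.0 ± 6.41 FPKM in KO_HFD, 41.9 ± 1.09 in WT_HFD, 3.27 ± 0.850 in KO_NCD and 5.13 ± 0.512 in WT_NCD. It made up nearly all of their sum on the high-fat diet (mean 25.9 in KO_HFD and 42.9 in WT_HFD). On chow it made up less of that sum (mean 5.74 in KO_NCD and 6.90 in WT_NCD). Elane, neutrophil elastase, was below 1.6 FPKM in every library and fell with diet, at -1.17 in knockouts and -0.75 in wild types (adjusted p = 1.65e-05 and 0.000638 in limma).

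Reads that could belong to more than 1 gene were looked for by comparing 50-base windows of each member's transcript with all other annotated transcripts (GENCODE M21). Cma1 shared 5.38% of its windows with Gm48934, Mcpt4 shared 5.48% with Cma2 and Mcpt9, and Ms4a2 shared 2.69% with Ms4a4b. The other 7 members shared none. Cma2 stayed at or below 0.199 FPKM in every library, against 5.40 to 50.7 FPKM for Mcpt4.

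Genes outside the list whose pattern was most like that of the members were found by the root-mean-square distance, over 12 libraries, between a gene's centred log2(FPKM + 1) and the mean of the 9 tested members. Of 12738 protein-coding genes ranked, the 8 closest were Aebp1, Timp2, Antxr1, Pla1a, Ifi204, Frmd6, Gdpd1 and Rnf180, at distances of 0.198 to 0.261 against a median of 0.638. Aebp1, a secreted matrix protein gene, averaged 98.1 ± 4.77 FPKM in KO_HFD, 61.7 ± 3.52 in WT_HFD, 33.3 ± 17.8 in KO_NCD and 45.3 ± 4.12 in WT_NCD, so its group order is that of the proteases with a narrower range. Timp2, an inhibitor of matrix metalloproteinases, averaged 218 ± 3.66 FPKM in KO_HFD, 169 ± 2.73 in WT_HFD, 87.5 ± 15.2 in KO_NCD and 127 ± 10.3 in WT_NCD. For the members themselves the distance was 0.190 for Fcer1a, 0.197 for Mrgprb1 and 0.203 for Mrgprb2 and 0.392 to 0.593 for the proteases. It was 1.04 for Hdc and 0.553 for Kit, the pair that departs from the shared order. The distance alone does not mark Kit, since Cpa3, which follows that order, stood further off at 0.593.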

How the data were processed

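Levels come from a deposited table of FPKM for 30268 NCBI gene IDs in 12 libraries, per the file headers. Per the submitters' processing notes, without roles, the programs were HISAT2 2.1.0, StringTie 1.3.4d, Trimmomatic, bcl2fastq 2.20.0 and DESeq2 and the build was mm10, and libraries were made with a stranded mRNA kit per the labels' protocols. FPKM is relative within a library, so a rise of abundant transcripts lowers the rest.

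Symbols and positions of 30196 IDs came from RefSeq (GRCm38.p6). Columns were tied to groups by their headers. The values were taken as log2(FPKM + 1), kept at 1 FPKM in at least 3 libraries (14340 genes) and fitted with limma 3.58.1 in R 4.3.3: 4 group means, 8 residual degrees of freedom, a mean-variance trend and Benjamini-Hochberg adjustment. The p-values set a group difference against 1 spread per gene. That spread is pooled within the 4 groups of 3 libraries and drawn towards the trend over all genes. The script was tested on simulated data. Other steps used Python 3.11.15, pandas 2.3.3, NumPy 2.4.6 and SciPy 1.17.1.

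The members, the lists and the tests were chosen with earlier results of these data known. From each list the 4 lowest p-values for diet in knockouts were eligible to be named. Kitl, Slc18a2, Tph1, Mcpt1, Mcpt8, Prss34, Cma2, the Mir10a row and the adipocyte gene were added with values known. Alternatives were other pseudocounts (0.1 and 0.5 FPKM), no filter, a filter on the mean, quantile and median scaling, no trend, fitting only the groups compared and leaving out libraries.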

Additional observations from a re-analysis of the deposited data

Results flagged for a closer look

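The diet effect differed between the genotypes, by the test of the difference itself, in 7 members and 5 other named genes, with log2 values of the diet effect in knockouts minus that in wild types. For the proteases it was 2.30 in Tpsb2, 1.94 in Cma1, 2.08 in Mcpt4 and 2.06 in Cpa3. For the receptors it was 1.37 in Fcer1a, 1.07 in Mrgprb1 and 1.09 in Mrgprb2. The calls of these 7 members were fragile, since each held in only 1 to 3 of the 12 fits with a library left out. The tryptase gene Tpsab1 stood at 1.37 (adjusted p = 0.0358 in limma), and like both Mrgprb genes it passed the filter on low values through KO_HFD alone.

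Among the genes nearest in pattern it was 0.91 in Timp2, 0.88 in Antxr1, which encodes a collagen-binding receptor, 0.77 in the interferon-inducible Ifi204 and 0.68 in Frmd6 (adjusted p = 0.0449, 0.0358, 0.0449 and 0.0305 in limma). These 4 were found by their likeness to the members, so their interaction is not separate evidence. In all 12 the estimate was positive, as it was in 38 of the 39 genes called over the whole table. The shared sign is therefore not particular to these genes. No group of 3 libraries was searched for single high or low samples.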

How the results depend on the processing

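For the diet effect in knockouts, 7 or 8 members were called under every alternative run. For diet in wild types 3 were called, 2 to 5 when each library was left out in turn, and 1 without the 3 chow libraries with ciliated transcripts. For genotype on the high-fat diet 7 were called, 1 to 7 with each library left out, and 2 when only the 6 libraries of those groups were fitted. For genotype on chow the count was 0, and 0 to 1 with a library left out, the 1 being Tpsb2 without KO_NCD 2 (adjusted p = 0.0482). For the interaction 7 were called, 0 to 7 with a library left out, 3 with no filter on low values, 1 after quantile scaling and 4 without the 3 ciliated libraries; 7, 4 and 2 calls were left without KO_NCD 2, WT_HFD 4 and WT_NCD 2, and 0 without each of the other 9 libraries. The cause was not tested, although fewer libraries also leave fewer degrees of freedom. In sign only Hdc reversed: its diet effect in knockouts was -0.82 to 0.25 with a library left out, positive without KO_NCD 2, and 0.25 without the 3 ciliated libraries, and its genotype effect on chow was -0.99 to 0.0753 with a library left out, positive without WT_NCD 2, KO_NCD 3 or KO_NCD 4, and 0.0648 without the 3 ciliated libraries. Of the members' fold changes over all alternatives, 790 kept direction and call, 128 lost the call, 12 gained it and 6 reversed. Over the whole table, calls for genotype on the high-fat diet ran from 17 to 953 (115 as reported), for the interaction from 0 to 168 (39), for genotype on chow from 4 to 15 (7) and for diet in wild types from 3878 to 8243 (7279). No paired analysis was possible because the columns carry animal numbers that differ from the replicate numbers of the sample titles.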
